A study of Rattus norvegicus with 4 samples.

Results

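The p53 response and the Bcl2 family of cell death regulators were examined in the telencephalon, the front part of the embryonic forebrain, of wild-type rats and of rats with mutant Pax6, a paired-box transcription factor. The genes were chosen as a list of 9: Mdm2, Ccng1, Plk2 and Btg2 as targets of p53, Bax as a target of p53 and a member of the Bcl2 family, and Bcl2, Bcl2l1, Bcl2l11 and Mcl1 as further members of that family. Every probe set annotated to a single symbol that was on the list was taken, which gave 14 probe sets for 7 genes, out of 14217 genes with such a probe set and 31042 probe sets in all. Bax and Btg2 had 0 such probe sets and were not analysed here. Of the 14 probe sets, 13 had a mean above the level under which probe sets were left out as dim (3.21 on the log2 scale) and were tested.

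The study set 2 arrays of wild-type telencephalon against 2 arrays from rSey2/rSey2 rats, homozygous for a Pax6 mutation, on 1-colour Affymetrix rat arrays. All embryos were Sprague-Dawley rats at E11.5. The RNA came from pooled embryos (13 telencephalons per the design text, which leaves unclear whether per array or per genotype). Replicates are named biological in the labels, but litters are not given, and p-values therefore cover only the spread seen among these 4 arrays, which may be partly technical. In such bulk tissue, fewer cells of a type and less RNA per cell cannot be told apart.

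The protein p53 is a transcription factor that is kept low in unstressed cells and accumulates after DNA damage. It then raises the transcription of genes that stop the cell cycle or promote cell death, and also of Mdm2, the ubiquitin ligase that marks p53 itself for breakdown, which closes a negative feedback loop. Proteins of the Bcl2 family decide at the outer mitochondrial membrane whether a cell dies: Bcl2, Bcl2l1 (Bcl-xL) and Mcl1 protect it, Bax and Bak1 open the membrane, and proteins with only a BH3 domain, such as Bcl2l11 (Bim), neutralise the protective members. In the early forebrain these genes are known to affect how many progenitors and young neurons survive.

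Values are log2 GCRMA values, 1 per probe set and array, and differences are mutant minus wild type on that scale, with the moderated standard error (SE) of limma. A value measures its own probe set across arrays, so levels are not compared between probe sets. Of the 18625 probe sets in the limma fit, 0 (0%) had an adjusted p under 0.05 and 680 (3.65%) an unadjusted p under 0.05. Array medians over them ran from 8.22 to 8.35, and replicate 2 had the higher median in both genotypes. Of 10 listed neuroepithelial markers 9 had a probe set with a single symbol, Sox2, Nes, Vim and Lhx2 among them, and 0 were dim. Of 8 macrophage markers 7 were dim. The tested Pax6 probe set was at 11.75 and 11.85 in wild type and at 11.78 and 11.63 in the mutant, and the sources used here do not say where the lesion lies relative to it, so it does not check the labels.

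The promoters of the 3 measured p53 targets are shown because these genes share p53 as a regulator. The windows come from RefSeq (build GRCr8) and run from 250 bases before to 50 after the annotated start, 5′ to 3′ on the gene's strand. Capitals mark matches to TGACGTCA, the cyclic AMP response element, or to the p53 half-site consensus. Both motifs equal their own reverse complement, so a match counts for both strands, and no matches overlapped.
Plk2, chr2:43702286-43702585, plus strand: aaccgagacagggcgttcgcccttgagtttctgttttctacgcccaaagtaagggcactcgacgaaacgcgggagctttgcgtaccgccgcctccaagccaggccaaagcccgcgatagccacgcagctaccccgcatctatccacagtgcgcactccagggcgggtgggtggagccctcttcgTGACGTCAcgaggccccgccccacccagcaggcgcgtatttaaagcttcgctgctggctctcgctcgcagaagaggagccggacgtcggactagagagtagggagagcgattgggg
Mdm2, chr7:55200742-55201041, minus strand: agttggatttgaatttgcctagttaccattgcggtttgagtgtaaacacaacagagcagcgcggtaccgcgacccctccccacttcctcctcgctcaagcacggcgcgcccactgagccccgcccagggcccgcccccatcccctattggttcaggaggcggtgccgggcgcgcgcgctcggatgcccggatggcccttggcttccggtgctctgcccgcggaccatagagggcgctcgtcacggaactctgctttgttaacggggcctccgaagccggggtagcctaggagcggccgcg
Ccng1, chr10:25684827-25685126, minus strand: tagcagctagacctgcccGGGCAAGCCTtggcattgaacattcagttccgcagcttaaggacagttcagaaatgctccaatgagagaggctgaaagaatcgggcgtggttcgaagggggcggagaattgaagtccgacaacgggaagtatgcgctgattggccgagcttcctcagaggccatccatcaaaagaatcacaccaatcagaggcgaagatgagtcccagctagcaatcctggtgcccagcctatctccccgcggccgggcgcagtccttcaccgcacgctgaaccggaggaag

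The Plk2 window held 1 TGACGTCA, whose first base lay 66 bases before the start, and 0 p53 half-sites. The Ccng1 window held 1 p53 half-site and the Mdm2 window neither motif. The p53-responsive promoter of Mdm2 is known to lie in its first intron, outside this window. Of 33469 rat promoter windows of the same length (300 bases), 7.98% held a p53 half-site and 1.83% held TGACGTCA. RefSeq windows were found for 8 of the 9 listed genes, 11 windows in all because Bcl2l1 has several starts, of which 1 (Ccng1) held a p53 half-site and 2 (Plk2 and Btg2) held TGACGTCA. A match is a match of letters and does not show binding.

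Plk2, a Polo-like kinase induced by p53 and also by growth factors and neuronal activity, had the largest difference of the list. In wild type its value was 7.90 and 7.93, and in the mutant 8.36 and 8.31. Both mutant arrays lay above both wild-type arrays, with a gap of 0.37 between the nearest of them, while arrays of a genotype lay within 0.06 of each other. The difference was 0.42 (SE 0.07, n = 2 arrays per genotype), a 1.34-fold higher value with a 95% interval from 1.15-fold to 1.55-fold. It did not pass over all probe sets (limma unadjusted p = 0.00797, adjusted p = 1). It was the 1 member probe set of 13 with an unadjusted p under 0.05, against 3.65% of all tested probe sets. With any single array left out the difference ran from 0.39 to 0.45, with the lowest adjusted p at 0.727.

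Lists of red cell, endothelial and neurogenic genes also had median differences above 0, while other marker lists did not all do so. Of 13 tested red cell markers (18 listed) 12 were higher, with a mean over the list of 8.19 and 8.37 in wild type and 8.73 and 8.72 in the mutant and a median difference of 0.43 (0.28 without wild-type replicate 1). Of 12 tested endothelial markers 11 were higher, with means of 7.29 and 7.45 against 7.42 and 7.74, which overlap, and a median difference of 0.18 (0.06 without mutant replicate 2, 0.30 without mutant replicate 1). Of 8 tested genes of neurogenic progenitors and young neurons (14 listed) 7 were higher, with means of 6.79 and 7.14 against 7.25 and 7.19 and a median difference of 0.31 (0.10 without wild-type replicate 1). Tubb3 was the lower gene, and Neurog2, Eomes and Neurod1 were dim. The largest difference of that list was that of the microtubule protein Dcx (0.51, SE 0.12), at 4.34 and 4.60 in wild type and 4.99 and 4.96 in the mutant. No red cell or endothelial marker that had a probe set was at the lowest value in all arrays. Mesenchymal markers had 5 of 8 lower, with means of 8.84 and 8.87 in wild type and 8.59 and 8.93 in the mutant. Surface ectoderm markers had 3 higher and 3 lower of 7, with means of 5.70 and 5.56 against 5.37 and 5.48. Neuroepithelial markers had 7 of 9 higher, with means of 10.40 and 10.56 against 10.49 and 10.58, which overlap. Their median difference was 0.08 (0.03 without wild-type replicate 1, 0.17 without wild-type replicate 2). In limma 0 genes of any of these lists passed (1 of the neurogenic, 1 of the endothelial, 3 of the red cell and 3 of the surface ectoderm genes at an unadjusted p under 0.05). Of all 9840 tested genes, 4888 were higher in the mutant and 353 had an unadjusted p under 0.05 in limma. The part of these cell types in the Plk2 difference was not tested.

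Mdm2 was measured by 3 probe sets, and the arrays of the genotypes overlapped on each. On probe set 1383288_at the wild-type arrays were at 9.89 and 9.98 and the mutant arrays at 9.97 and 9.92. On 1384427_at they were at 10.04 and 10.24 in wild type and at 10.05 and 10.16 in the mutant. On 1383485_at they were at 8.38 and 8.57 in wild type and at 8.33 and 8.44 in the mutant. On these last 2 probe sets replicate 2 was the higher array in both genotypes. The differences were 0.0065 (SE 0.08), -0.03 (SE 0.11) and -0.09 (SE 0.11) in this order, each smaller than the gap between replicates in wild type. The last ran from -0.19 with wild-type replicate 1 left out to -0.0012 with wild-type replicate 2 left out. The 95% intervals of the 3 probe sets reached at most 1.34-fold lower and 1.24-fold higher.

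Ccng1 encodes cyclin G1, a target of p53 that recruits a phosphatase to Mdm2. Its value was 10.29 and 10.24 in wild type and 10.17 and 10.31 in the mutant, so the wild-type arrays lay between the mutant arrays. The difference was -0.02 (SE 0.09; limma adjusted p = 1), with a 95% interval from 1.23-fold lower to 1.19-fold higher. Of the 3 p53 targets measured, then, only Plk2 had groups that did not overlap, and whether its difference exceeds that of Mdm2 or Ccng1 was not tested.

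**Figure D1:**
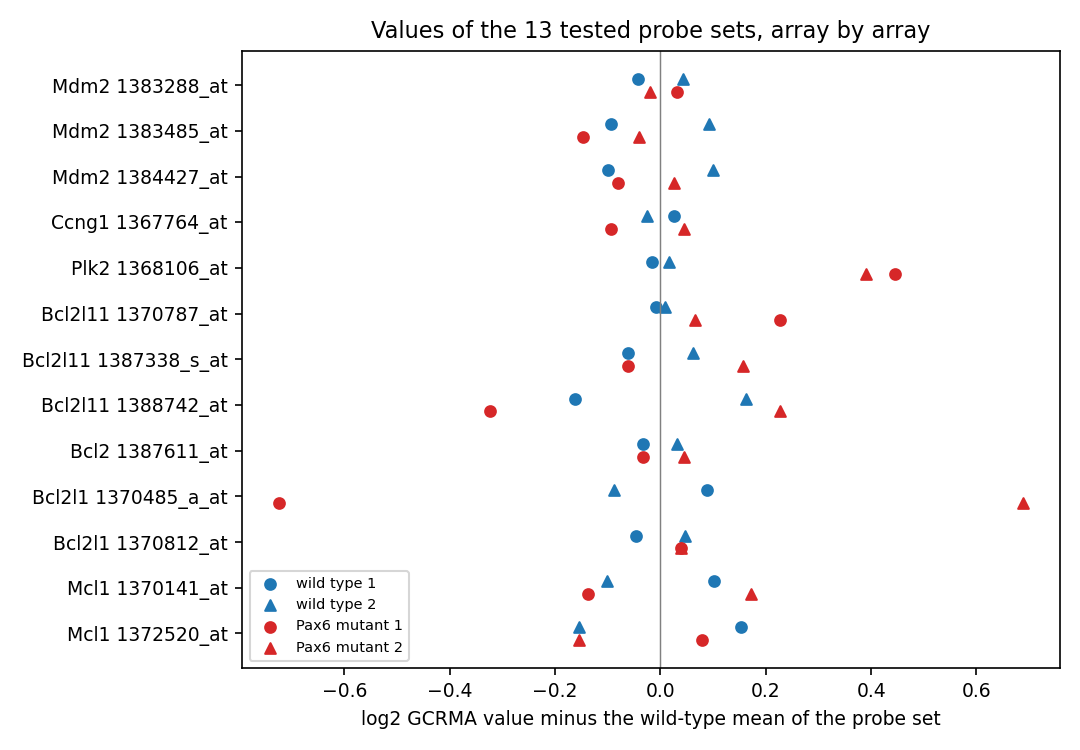
Log2 GCRMA value of each tested member probe set in each of the 4 arrays (x axis, as the distance from that probe set's wild-type mean; blue wild type, red mutant; circles replicate 1, triangles replicate 2). The mutant arrays of Plk2 sit apart from the wild-type arrays, whereas the mutant arrays of Bcl2l1 1370485_a_at lie on either side of wild type, at 5.67 and 7.08.

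Bcl2l11 (Bim), the BH3-only activator of cell death, was measured by 3 probe sets. On 1370787_at the arrays were at 4.28 and 4.30 in wild type and at 4.52 and 4.35 in the mutant. Both mutant arrays were the higher ones, but the nearest arrays of the genotypes were 0.06 apart and the mutant arrays 0.16 apart. The difference was 0.15 (SE 0.09; limma unadjusted p = 0.206, adjusted p = 1), and with any single array left out it ran from 0.06, with mutant replicate 1 left out, to 0.23, with mutant replicate 2 left out. On 1388742_at the arrays were at 9.01 and 9.34 in wild type and at 8.85 and 9.40 in the mutant. Here replicate 2 was higher in both genotypes, by 0.32 and 0.55, and the difference was -0.05 (SE 0.26). Leaving out mutant replicate 2 gave -0.32 and leaving out mutant replicate 1 gave 0.23. The third, 1387338_s_at, lay near the dim level, at 3.73 and 3.86 in wild type and at 3.73 and 3.95 in the mutant, with a difference of 0.05 (SE 0.12). The probe sets of Bcl2l11 thus gave no shared direction.

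Among the protective members, Bcl2 had 1 probe set, at 5.52 and 5.58 in wild type and at 5.52 and 5.60 in the mutant. Replicate 2 was the higher array in both genotypes. The difference was 0.0064 (SE 0.08), with a 95% interval from 1.17-fold lower to 1.18-fold higher. Replicate 1 had exactly the same value in both genotypes (5.5205). Whether such a repeat marks a floor of the probe set was not tested, so the narrow interval may not be a limit on change.

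Bcl2l1 (Bcl-xL), which protects young neurons and also maturing red cells, had 3 probe sets that behaved differently. One, 1369180_at, sat at the lowest value of the table (2.07) in all 4 arrays, so no difference can be measured there. On 1370812_at the arrays were at 6.86 and 6.96 in wild type and at 6.95 in both mutant arrays, differing by 0.04 (SE 0.08). The mutant values were exactly the same (6.9495), and whether this marks a floor of the probe set was not tested. On 1370485_a_at they were at 6.48 and 6.30 in wild type and at 5.67 and 7.08 in the mutant. The mutant arrays of this probe set lay 1.41 apart, the largest gap between replicates among the members. Its difference was -0.02 (SE 0.56), with a 95% interval from 3.31-fold lower to 3.23-fold higher. It was 0.69 when mutant replicate 1 was left out and -0.72 when mutant replicate 2 was, so this probe set sets no useful limit.

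Mcl1, a short-lived protective member, had 2 probe sets. On 1372520_at the arrays were at 12.96 and 12.65 in wild type and at 12.88 and 12.65 in the mutant, with replicate 1 the higher in both genotypes. On 1370141_at they were at 11.08 and 10.88 in wild type and at 10.84 and 11.15 in the mutant, with opposite replicates the higher. The differences were -0.04 (SE 0.17) and 0.02 (SE 0.16). The widest of their limits were 1.46-fold lower and 1.42-fold higher.

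**Figure D2:**
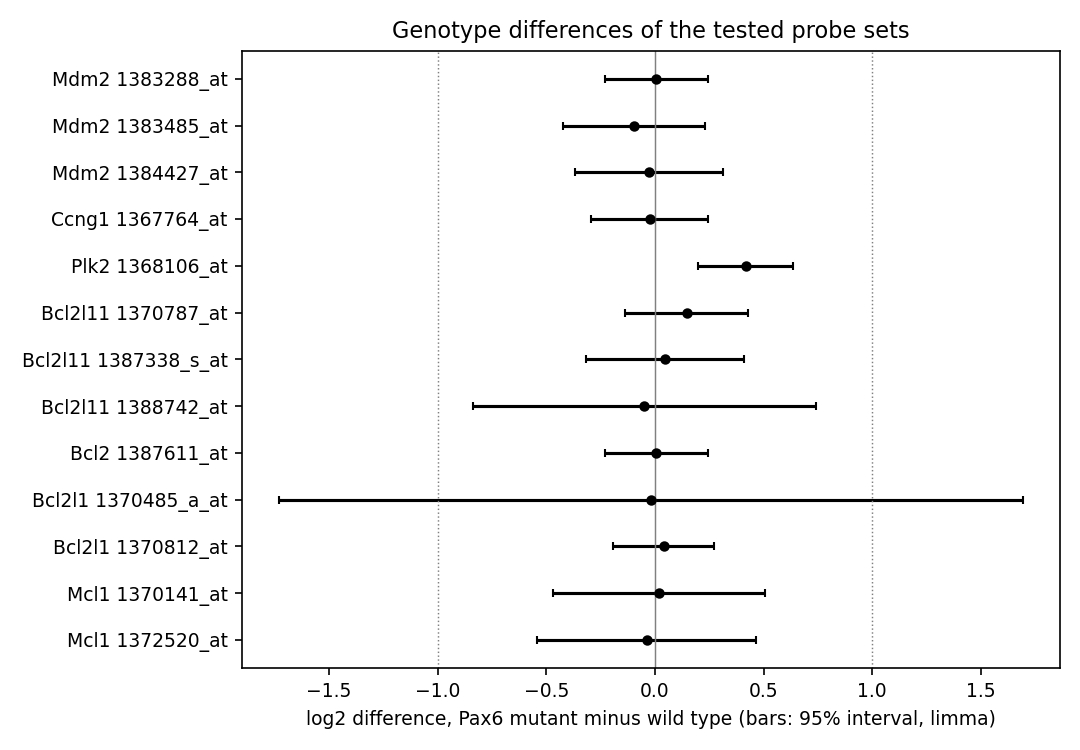
Difference of each tested member probe set (mutant minus wild type, log2 scale) with its 95% interval from limma, n = 2 arrays per genotype; dotted lines mark 2-fold. All intervals but that of Plk2 include 0, and the interval of Bcl2l1 1370485_a_at, from -1.73 to 1.69, is the only one that crosses the dotted lines.

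Across the 13 tested member probe sets, 7 were higher and 6 lower in the mutant, and 0 passed in limma (1 at an unadjusted p under 0.05). The differences ran from -0.09 to 0.42, with a median of 0.0064 beside 0 over all tested probe sets. The median size of a difference, sign aside, was 0.037 among the members and 0.098 over all tested probe sets. In 11 of the 13 the difference was under 0.1 in size, which held for 50.6% of all tested probe sets. The arrays of the genotypes did not overlap for 2 of the 13, Plk2 and Bcl2l11 1370787_at, both higher in the mutant. Of all tested probe sets 23.2% did not overlap, 11.4% higher and 11.8% lower in the mutant.

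For most members the arrays of a genotype differed more from each other than the genotypes did. In 10 of the 13 the gap between replicates exceeded the genotype difference in both genotypes, which held for 46% of all tested probe sets. In 12 of the 13, all but Plk2, the gap exceeded it in at least 1 genotype, as in 84.4% of all tested probe sets. The 95% interval excluded a 2-fold change in either direction for 12 of the 13 and a 1.5-fold change for 10. A missed threshold does not show equal levels, and these intervals give what sizes the arrays could not exclude. The counts of excluded changes include Bcl2, Bcl2l1 1370812_at and Bcl2l11 1387338_s_at, each with exactly the same value in more than 1 array. Whether such repeats mark a floor was not tested, so the intervals of these probe sets may not limit change.

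Among regulators of p53 and the kinases that signal DNA damage, 9 of 14 listed genes were tested and 0 passed in limma (0 at an unadjusted p under 0.05). Their median difference was -0.05, from -0.12 (wild-type replicate 1 left out) to 0.0072 (mutant replicate 1 left out), and 1 was higher and 1 lower without overlap, where 12.2% and 12.1% of all 9840 tested genes were. Mdm4, the partner of Mdm2 in restraining p53, was at 9.87 and 10.00 in wild type and at 9.37 and 9.97 in the mutant (difference -0.26, SE 0.25; 0.04 without mutant replicate 1). The genes without overlap were the p53 kinase Hipk2 at 0.22 (SE 0.15; 0.05 without mutant replicate 2) and the phosphatase Ppm1d at -0.09 (SE 0.07). Usp7, which removes ubiquitin from Mdm2 and p53, differed by -0.19 (SE 0.19; 0.0072 without mutant replicate 1).

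Of 32 other p53 targets listed, 17 were tested and 0 passed in limma (0 at an unadjusted p under 0.05), and their median was -0.08, or -0.02 with wild-type replicate 2 left out. Without overlap 0 were higher and 3 lower, where 12.2% and 12.1% of all tested genes were. The 3 were Gadd45a, Cdkn1a and Xpc, a DNA damage sensor, whose difference was -0.13 (SE 0.08). Gadd45a, a growth arrest gene, was at 9.42 and 9.76 in wild type and at 9.19 and 9.33 in the mutant (difference -0.33, SE 0.16; -0.16 without wild-type replicate 2). Cdkn1a, which encodes the cell cycle inhibitor p21, was at 5.08 and 4.98 in wild type and at 4.89 and 4.75 in the mutant (difference -0.21, SE 0.09). These lay on the other side of 0 from Plk2, and whether they differ from it was not tested. The nuclease Aen differed by -0.28 (SE 0.20; -0.06 without mutant replicate 1). Bbc3 (Puma), a BH3-only p53 target, was at 6.82 and 6.29 in wild type and at 6.50 and 7.10 in the mutant (difference 0.25, SE 0.32; -0.06 without mutant replicate 2), so its arrays overlapped. Fas, Perp and Phlda3 were among 8 listed targets that were dim, and Pmaip1 was not analysed here.

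The rest of the Bcl2 family gave 10 tested genes of 18 listed, of which 0 passed in limma (0 at an unadjusted p under 0.05), and their median was -0.04, or -0.24 with wild-type replicate 1 left out and 0.02 with mutant replicate 1 left out, with 1 lower without overlap. That gene was Bnip3, a mitochondrial member also induced by low oxygen (difference -0.18, SE 0.11; -0.10 with mutant replicate 2 left out). Of all tested genes 12.1% were lower without overlap. Bak1, which opens the mitochondrial membrane as Bax does, was at 7.01 and 7.42 in wild type and at 7.01 and 7.31 in the mutant, which differed by -0.06 (SE 0.21). The protective Bcl2l2 differed by -0.20 (SE 0.21). Hrk, a BH3-only gene of neurons, was at the lowest value in all 4 arrays.

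Further down the pathway, 19 of 25 listed caspases, apoptosome genes and inhibitors were tested. In limma 0 passed (0 at an unadjusted p under 0.05), the median was -0.01, from -0.06 (wild-type replicate 1 left out) to 0.05 (wild-type replicate 2 left out), and 2 were higher and 1 lower without overlap. Casp9, the initiator caspase of the mitochondrial pathway, was at 8.03 and 8.13 in wild type and at 7.87 and 8.25 in the mutant (difference -0.02, SE 0.17). Casp8, the initiator caspase of death receptors, was at 5.77 in both wild-type arrays and at 5.86 and 6.17 in the mutant (difference 0.25, SE 0.14; 0.09 with mutant replicate 2 left out and 0.41 with mutant replicate 1 left out). The wild-type values of Casp8 were exactly the same (5.7656), and whether this marks a floor of the probe set was not tested. Fadd, the adaptor of Casp8, differed by 0.27 (SE 0.17), with a range from 0.11 (mutant replicate 2 left out) to 0.43 (mutant replicate 1 left out). The nuclease Dffb differed by 0.19 (SE 0.12), with a range from 0.09 (mutant replicate 1 left out) to 0.30 (mutant replicate 2 left out). Casp8 and Dffb were the genes higher without overlap, and Birc5 (survivin), an inhibitor with a role in mitosis, was the lower one (difference -0.16, SE 0.09; -0.09 with wild-type replicate 2 left out). The nearest Dffb arrays of the genotypes were only 0.0067 apart. Of all tested genes 12.2% were higher and 12.1% lower without overlap.

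Plk2 is also counted among genes that respond within minutes to hours to growth factors, so related genes were set beside it. Of 20 listed immediate early genes 10 were tested and 10, Fos among them, were dim. In limma 0 passed, with 2 at an unadjusted p under 0.05, in opposite directions, where 353 of all 9840 tested genes were under 0.05. Without overlap 2 were higher and 3 lower, where 12.2% and 12.1% of all tested genes were. Jun was at 9.78 and 9.75 in wild type and at 9.34 and 9.45 in the mutant (difference -0.37, SE 0.08), and Ier5 at 8.98 and 9.11 against 9.34 and 9.43 (difference 0.34, SE 0.09). Jund, which pairs with Fos proteins as Jun does, differed by -0.28 (SE 0.09). The median of the list was 0.06 and ran from -0.02 (mutant replicate 2 left out) to 0.13 (mutant replicate 1 left out). Among 9 tested paralogs of Plk2, Ccng1 and Btg2, 0 passed in limma (0 at an unadjusted p under 0.05), the median was -0.00075, from -0.07 (wild-type replicate 2 left out) to 0.11 (mutant replicate 2 left out), and 1, Plk5, was higher without overlap (difference 0.11, SE 0.09; 0.03 with wild-type replicate 1 left out and 0.19 with wild-type replicate 2 left out). Of all tested genes 12.2% were higher without overlap. The antiproliferative genes Tob1 (0.20, SE 0.52) and Btg3 (-0.12, SE 0.16) had arrays that overlapped.

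**Figure D3:**
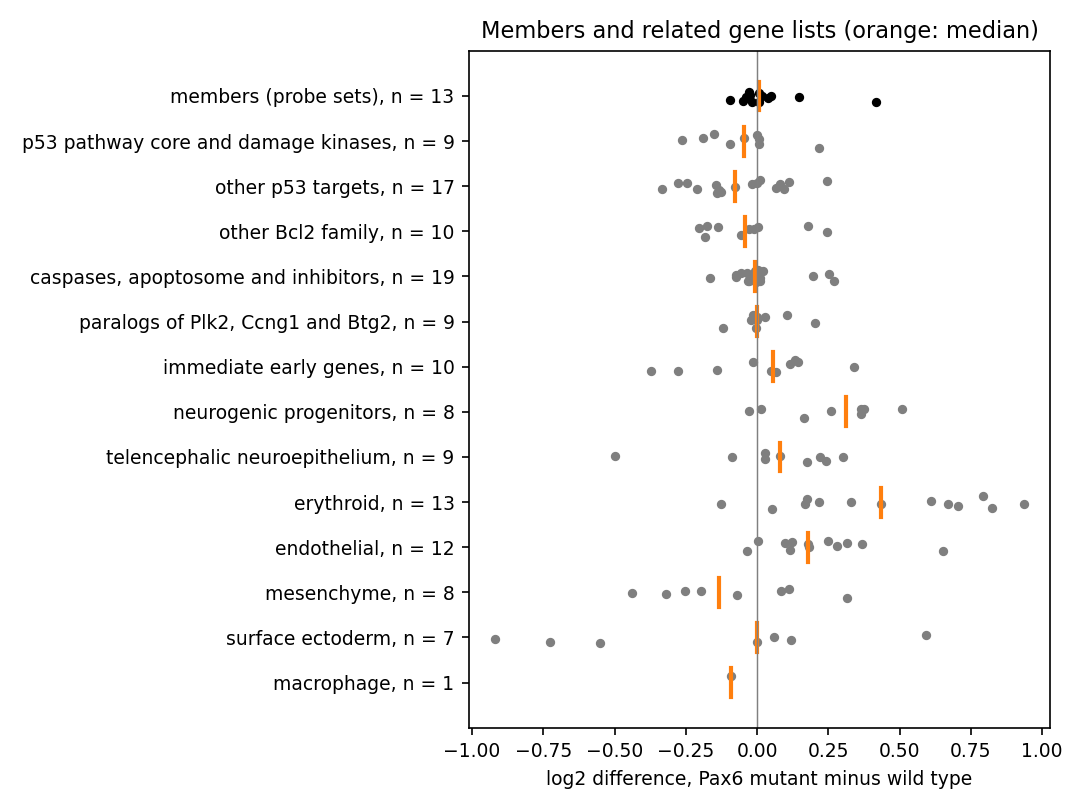
Differences (mutant minus wild type, log2 scale) of the member probe sets (black) and of the tested genes of each related or marker list (grey, 1 probe set per gene); orange bars are medians. The medians of the p53 and cell death lists ran from -0.08 to -0.01. The median was 0.43 for red cell markers, 0.31 for neurogenic genes, 0.18 for endothelial and 0.08 for neuroepithelial markers. For surface ectoderm markers it was 0 and for mesenchymal markers -0.13.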

How the data were processed

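RNA of 4 samples was hybridised to 1 array each. The submitters' processing notes name GCRMA, without a version, as the tool with which the authors turned probe signals into the deposited table of log2 values, 1 for each probe set on each array. GCRMA models background by probe sequence, normalizes the arrays and combines the probes. That the scale is log2 was judged from the range, 2.07 (a shared lowest value) to 16.13. Precision is limited by the number of arrays, and no depth applies.

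The 57 control probe sets of 31099 were not used. The platform annotation gave 1 symbol to 20826, several to 436 and none to 9780; 20758 matched the RefSeq table by Entrez identifier. Probe sets with a mean under the 40th percentile (12417) were left out as dim. limma (version 3.58.1, R 4.3.3) fitted genotype on the other 18625 with lmFit and eBayes, with Benjamini-Hochberg adjustment and a threshold of 0.05, and the fit was tested on simulated data. The simulation gave every probe set the same spread and used shifts far larger than the member differences. It therefore checks the code and does not show that differences of the sizes reported here could be found. With 2 arrays a group the smallest two-sided p of an exact permutation test is 0.333, and no such test was run. Each gene of the other lists was represented by its brightest probe set.

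Named were all member probe sets and, of each other list, up to 3 genes with the largest difference, plus a few set whatever their value (Cdkn1a, Bbc3, Pmaip1, Bak1 and Casp9 among them). Xpc, Ppm1d, Birc5, Tubb3 and the dim genes were named outside this rule after values were seen. Lists that mark cell types are described by counts and mean levels, and of the 3 neurogenic genes under the rule only Dcx is given. The members and lists were chosen with earlier results of these data known, so no test over a list is given.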

Additional observations from a re-analysis of the deposited data

How the results depend on the processing

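The 0 member probe sets past the threshold in limma stayed 0 under every alternative run: no filter, a stricter filter (60th percentile), a pseudocount of 16, quantile normalization, median centring, the replicate block, and leaving out each array (1 or 2 members at an unadjusted p under 0.05). The replicate numbers name arrays and do not pair them by the labels; deviations of same-numbered arrays correlated at 0.43 over the tested probe sets, and with the replicate block Plk2 had an adjusted p of 0.736. The count of members with separate groups was 1 with the stricter filter, which tests 8 members, and 3 with quantile normalization. It was 6 to 9 with an array left out (6 without either wild-type array, 9 without mutant replicate 1, 7 without mutant replicate 2), where only 2 pairings of arrays must agree. The median over members ran from -0.06 to 0.05 with an array left out. For 10 of the 13 probe sets the sign depended on single arrays: with an array left out the difference ran from -0.036 to 0.049 for Mdm2 1383288_at, -0.13 to 0.073 for Mdm2 1384427_at, -0.093 to 0.045 for Ccng1, -0.062 to 0.16 for Bcl2l11 1387338_s_at, -0.32 to 0.23 for Bcl2l11 1388742_at, -0.032 to 0.045 for Bcl2, -0.72 to 0.69 for Bcl2l1 1370485_a_at, -0.0059 to 0.086 for Bcl2l1 1370812_at, -0.14 to 0.17 for Mcl1 1370141_at and -0.19 to 0.12 for Mcl1 1372520_at. With the pseudocount Bcl2l1 1370485_a_at was at 0.0080 against -0.02. Plk2 ran from 0.39 to 0.45 over all alternatives. Of 25 other genes named with values, 8 changed sign with an array left out, running from -0.56 to 0.037 for Mdm4, -0.39 to 0.0072 for Usp7, -0.057 to 0.55 for Bbc3, -0.26 to 0.15 for Bak1, -0.45 to 0.046 for Bcl2l2, -0.21 to 0.17 for Casp9, -0.35 to 0.76 for Tob1 and -0.30 to 0.060 for Btg3; 0 genes of the lists passed in limma under any alternative.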
